A study of Mus musculus with 6 samples.

Results

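Apart from the mismatch recognition gene Msh6, the 37 genes described here act in homologous recombination, Fanconi repair of DNA interstrand crosslinks or checkpoint signalling. This signalling halts the cell cycle when DNA is damaged or replication stalls. The 37 were taken by symbol from the table of 26096 genes measured in microglia, and each of the 37 symbols was found once. The table comes from RNA sequencing of 6 samples of microglia, the macrophages that live in the brain, from mice of genotype WT (wild type). Medium conditioned by normal bone marrow-derived macrophages (BMDMs; label C CM) was given to 3 samples, and medium from ferroptotic BMDMs (label FeM CM) to the other 3. Ferroptosis is an iron-dependent death driven by lipid peroxidation. How ferroptosis was induced, how long the microglia were exposed, how old the mice were and whether the cells were primary are all unstated in the sources used here. The labels do not call the samples separate cultures, and p-values therefore measure only the spread of these samples, possibly a technical one.

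Homologous recombination repairs a broken chromosome from its sister copy, so its genes are mostly active in cells that replicate their DNA. Broken ends are trimmed to single strands, BRCA1 and BRCA2 complexes load a recombinase that carries out strand invasion, and helper ATPases assist it. The Fanconi core complex attaches ubiquitin to the FANCD2 and FANCI pair at crosslinks, and the kinases ATM and ATR signal through CHK2 and CHK1 to hold the cell cycle. Expression of many of these genes rises with entry into S phase under E2F transcription factors.

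With ferroptotic medium, 30 of the 37 genes fell, 1 rose (Rad51c) and 6 did not pass the test. The test was limma on the deposited log2 values, with a Benjamini-Hochberg adjusted p under 0.05 over 15597 genes, those reaching 10 normalized counts in 3 or more libraries. All 37 passed that filter. Of all genes tested, 22.8% were called lower and 19.7% higher, 42.5% in all. The median log2 fold change was -0.82 over the 37 genes and -0.0050 over all genes tested. At least 2-fold lower were 11 of the 37, where 3.70% of all genes tested were called and fell that far. In 33 of them every ferroptotic-medium library lay below every normal-medium library (28.2% of all genes tested), and in Rad51c every one lay above (25.6%; 53.7% in either direction). The largest falls were those of Rad54l (-1.51), Bard1 (-1.50), Clspn (-1.46), Fanci (-1.40) and Fancd2 (-1.37). The genes that did not pass were Rbbp8, Rad51d, Xrcc3, Fancc, Fancg and Fancl.

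**Figure D1:**
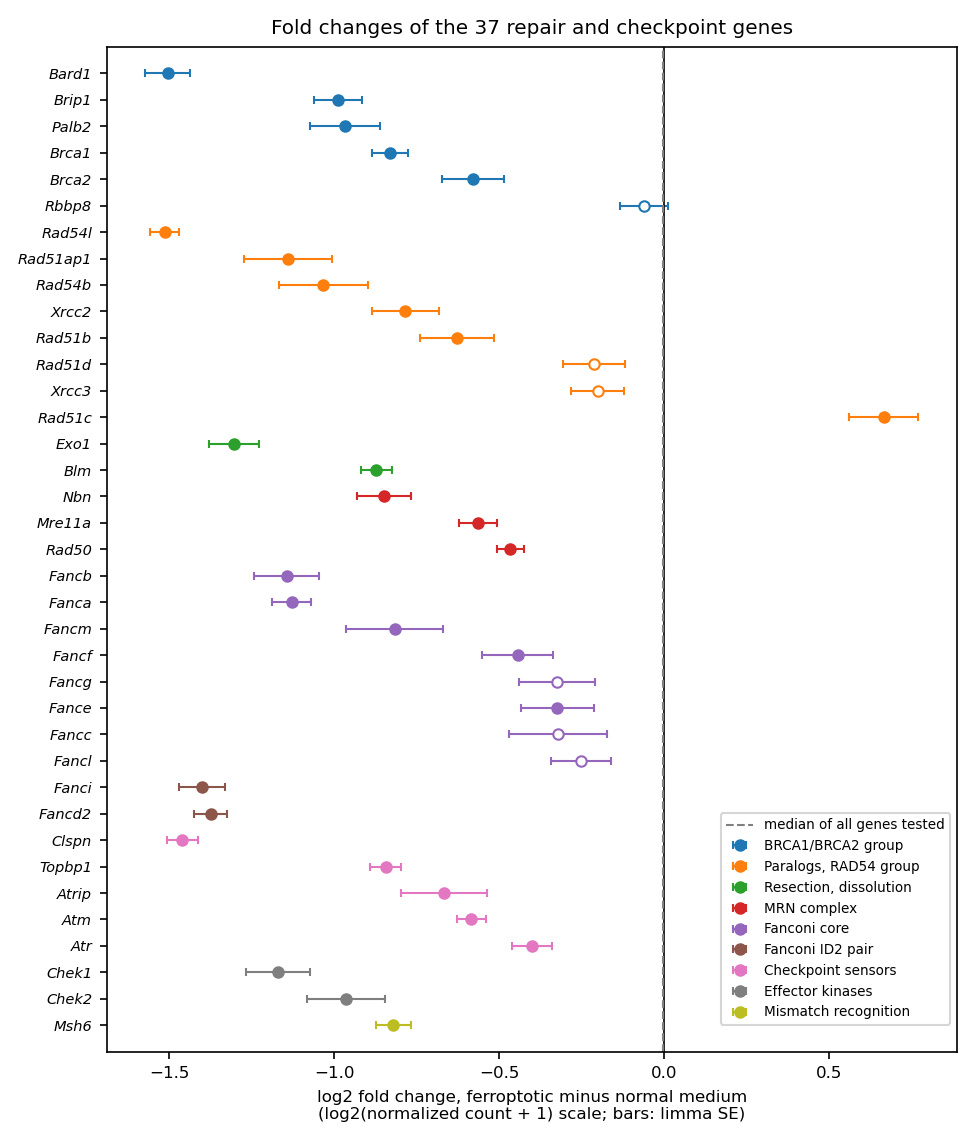
Log2 fold change (x axis, ferroptotic minus normal medium) of each of the 37 genes (y axis), coloured by role, with limma standard errors. Filled points passed the adjusted p of 0.05 and open points did not; Rad51c alone lies right of 0, and the dashed line is the median of all genes tested.

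Proliferation markers moved in the same libraries. All 30 listed markers of cycling cells fell, with a median log2 fold change of -1.33. Their mean log2 value lay at 12.68 to 12.72 in the normal-medium libraries and at 11.35 to 11.37 in the ferroptotic-medium libraries. Over the 37 repair and checkpoint genes the mean log2 value lay at 10.56 to 10.60 and at 9.79 to 9.83. In these bulk samples fewer cycling cells and less of each RNA per cell cannot be told apart.

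**Figure D2:**
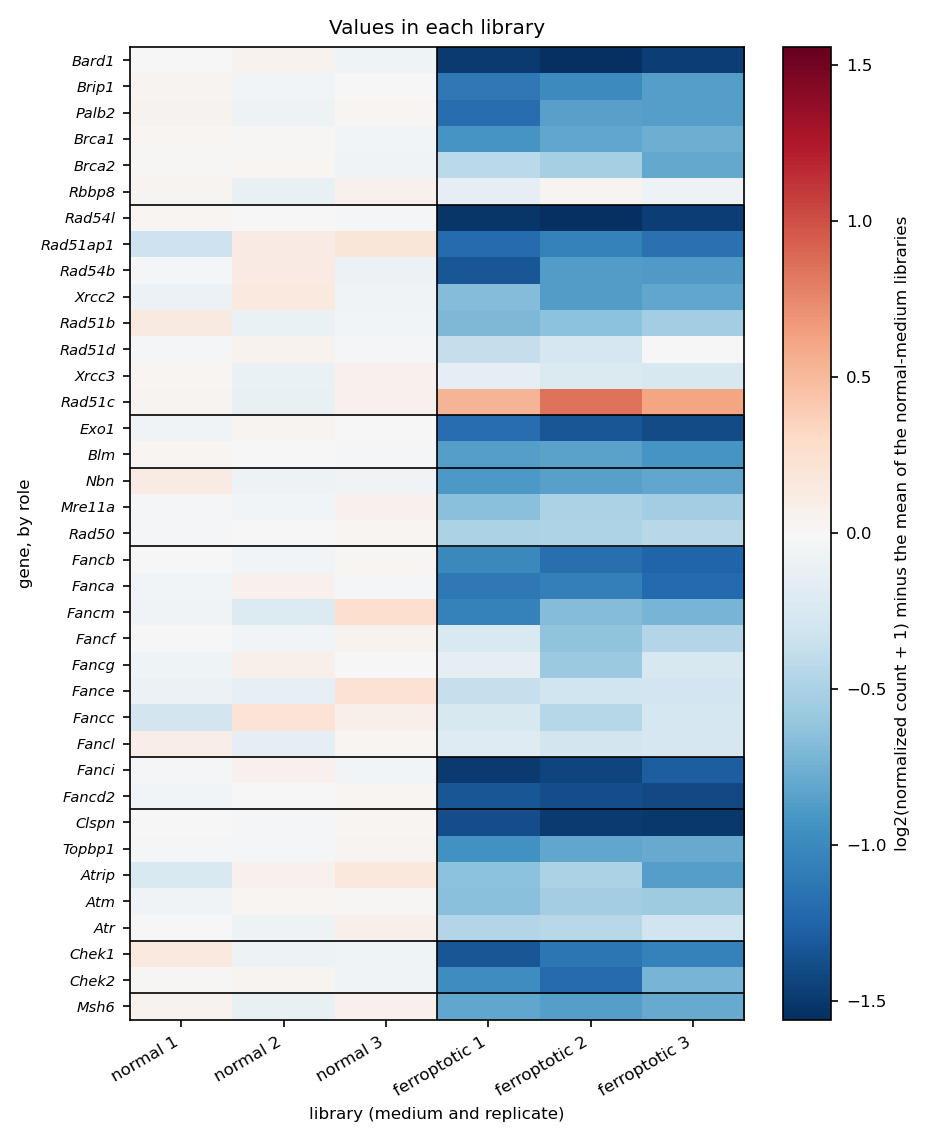
Each row is a gene, grouped by role, and each column is a library; colour is log2(normalized count + 1) minus the gene's mean over the 3 normal-medium libraries. The 3 ferroptotic-medium columns are blue in most rows, red in the row of Rad51c and near white in that of Rbbp8.

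Reads assigned to genes numbered 39624311 to 50557794 per library. All 12 microglia and macrophage markers were in the table, with 3 called lower and 2 higher. Their summed normalized counts were 225260.0 to 231998 and 234282 to 239664 in the normal and ferroptotic groups. The sums hide opposite shifts in their largest parts. Mean Cd14 went from 84976 to 117404, while Csf1r went from 76237 to 58594 and Cd68 from 37444 to 30783. The defining markers of resident microglia were nearly absent from these libraries labelled microglia, with 3 reads of P2ry12 and 21 of Tmem119 over the 6 libraries. Markers of other cell types were scarce to moderate. The corresponding sums were 880.1 to 982 and 1159 to 1218 for 5 of 6 astrocyte markers, 6824 to 7335 and 4277 to 4487 for 4 of 7 oligodendrocyte markers (mainly Mbp) and 309 to 325 and 395 to 445 for 5 of 7 endothelial and fibroblast markers. For 2 of 6 neuron markers the sums were 5.88 to 16.6 and 55.3 to 69.6, mainly Tubb3 in the ferroptotic group. For 4 of 8 T cell and neutrophil markers they were 11.8 to 21.5 and 136 to 163, mainly S100a8. No listed marker in the table was at 0 reads in all 6 libraries, and the part of these cells in the results below was not tested.

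Letters of the E2F site stood in the promoter windows of most of the genes that had a window. RefSeq promoter windows on GRCm38.p6 (250 bases before to 50 after each start) were found for 29 of the 37 genes. Fancd2, Exo1, Rad54b, Xrcc2, Nbn, Rad50, Rad51d and Rbbp8 had no window, so whether they hold the letters was not examined. The letters searched on both strands were TTCCCGC and the variants TTGGCGC or TTCGCGC or TTGCCGC, which can overlap each other on opposite strands. They were present in a window of 18 of these 29 genes (62.1%), against 19.2% of the 9874 tested genes with a window and 10.9% of all 27025 genes in the table of windows. CCAAT stood in 20 of 29 (69.0%), against 43.1% of tested genes. TTTGAA or TTCGAA, letters of the cell cycle homology region (CHR), stood in 3 (10.3%), against 17.1%. A match is a string of letters and not a shown binding site. The stretches below show the E2F letters, in capitals, in the called genes with the largest falls among those that hold them, and then in Rad51c, the gene that rose. Each is read 5′ to 3′ on the strand that holds the letters.
Bard1, chr1:71103163-71103191, minus strand: cgccgctcagtTTCCCGCtcaggaagttt
Clspn, chr4:126556990-126557018, minus strand: aagttcgagctTTCGCGCccagacgcggt
Fanci, chr7:79392345-79392373, minus strand: tccttccaaaaTTCCCGCtctactccacg
Fancb, chrX:164980409-164980437, minus strand: cagagcacttaTTCCCGCctctaccccgg
Rad51ap1, chr6:126939558-126939586, plus strand: ggcggtttcaaTTCCCGCcgaaaaccaga
Rad51c, chr11:87404477-87404505, minus strand: tttccagcgctTTCGCGCctcttgctcta
Rad51c, chr11:87405005-87405033, plus strand: gtagggagtggTTGGCGCccacgcgcgcg
Rad51c, chr11:87404942-87404970, plus strand: accccttgcttTTCCCGCcctcgcggggg
Along the gene, the upstream end of the match lay at position -208 relative to the transcription start in Bard1 and -172 in Fancb. It lay at 21 in Clspn, 18 in Fanci and 12 in Rad51ap1, counting the start base as 0. In Rad51c, which has a pair of annotated starts, matches lay at 12 of the first and at -68 and -5 of the second. The letters stood near the starts of genes that fell and of the gene that rose, but not of every gene that fell. Of the 24 genes called lower that had a window, 16 held them. Rad54l, the largest fall, held none in either of its windows, and Fancg, which was not called, held a match. Chek1 also held TTCCCGC, too near the edge of its window for a stretch to be printed.

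Among the BRCA1 and BRCA2 group, 5 of 6 genes fell. Bard1 (ENSMUSG00000026196), the partner that BRCA1 needs to be stable and to act as a ubiquitin ligase, had 1429.9, 1473 and 1362 normalized counts in the 3 normal-medium libraries and 504, 484 and 513 in the 3 ferroptotic-medium libraries (log2 fold change -1.50, SE 0.07; limma adjusted p = 4.91e-07). The lowest normal-medium library was more than 2-fold above the highest ferroptotic-medium library. Brca1 (ENSMUSG00000017146) itself had 3428, 3414 and 3258 against 1783, 1919 and 1981 (log2 fold change -0.83, SE 0.05; limma adjusted p = 4.32e-06), again with no overlap. Bard1 was lower relative to Brca1 in all 3 ferroptotic-medium libraries: the log2 ratio of Bard1 to Brca1 was -1.26, -1.21 and -1.26 with normal medium and -1.82, -1.99 and -1.95 with ferroptotic medium. Brip1, a helicase that binds BRCA1, averaged 2139 ± 62.3 and 1081 ± 98.4 with normal and ferroptotic medium (SD, 3 libraries each; log2 fold change -0.99). Palb2, which bridges BRCA1 and BRCA2, went from 944 ± 45.3 to 485 ± 63.0 (-0.97). Brca2, the loader of the recombinase, fell least of the called genes in this group, from 1662, 1683 and 1588 to 1224, 1147 and 947 (log2 fold change -0.58, SE 0.09; limma adjusted p = 0.00112), and its ferroptotic-medium libraries were the more scattered. Rbbp8 encodes CtIP, which starts the trimming of broken ends, and had 1598, 1435 and 1633 against 1405, 1602 and 1465 (log2 fold change -0.06, SE 0.07; limma adjusted p = 0.554). Its groups overlapped, and its log2 ratio to Brca1 went from -1.12 ± 0.13 to -0.35 ± 0.09 (SD, n = 3).

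Paralogs of the recombinase did not move together. RAD51B, RAD51C, RAD51D and XRCC2 form one complex that helps the recombinase onto DNA, and RAD51C also pairs with XRCC3 in another. Rad51c (ENSMUSG00000007646) had 441, 394 and 448 normalized counts with normal medium and 619, 770.5 and 652 with ferroptotic medium (log2 fold change 0.66, SE 0.11; limma adjusted p = 0.000997), a rise seen in each of the 3 libraries. Rad51b had 382, 321 and 336 against 212, 222 and 237 (log2 fold change -0.63, SE 0.11; limma adjusted p = 0.00189). For Xrcc2 the values were 549, 648 and 563 against 366, 319 and 334 (log2 fold change -0.78, SE 0.10; limma adjusted p = 0.00029). Both of these partners were lower in every ferroptotic-medium library, opposite to Rad51c. Rad51d had 1183, 1259 and 1182 against 937, 1003 and 1201 (log2 fold change -0.21, SE 0.09; limma adjusted p = 0.103), where the third ferroptotic-medium library lay inside the normal range. Xrcc3 had 745, 674 and 765 against 661, 622 and 614 (log2 fold change -0.20, SE 0.08; limma adjusted p = 0.0737), which did not overlap but missed the threshold. Within each library, the log2 ratio of Rad51c to the mean of Rad51b, Rad51d and Xrcc2 was -0.51, -0.70 and -0.44 with normal medium and 0.57, 0.89 and 0.51 with ferroptotic medium. This ratio does not depend on library scaling; its difference was 1.21, and the two-sided exact permutation p = 0.1 is the smallest that 3 against 3 libraries allow. Over Xrcc3 the ratio went from -0.77 ± 0.01 to 0.10 ± 0.20 (SD, n = 3; exact permutation p = 0.1). In all, 8 within-library ratios were computed, all chosen after the fold changes were seen, and each had an exact permutation p = 0.1 before and after Benjamini-Hochberg adjustment. No other gene model of GENCODE M21 shares exon bases with Rad51c, Rad51b, Rad51d or Xrcc2.

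**Figure D3:**
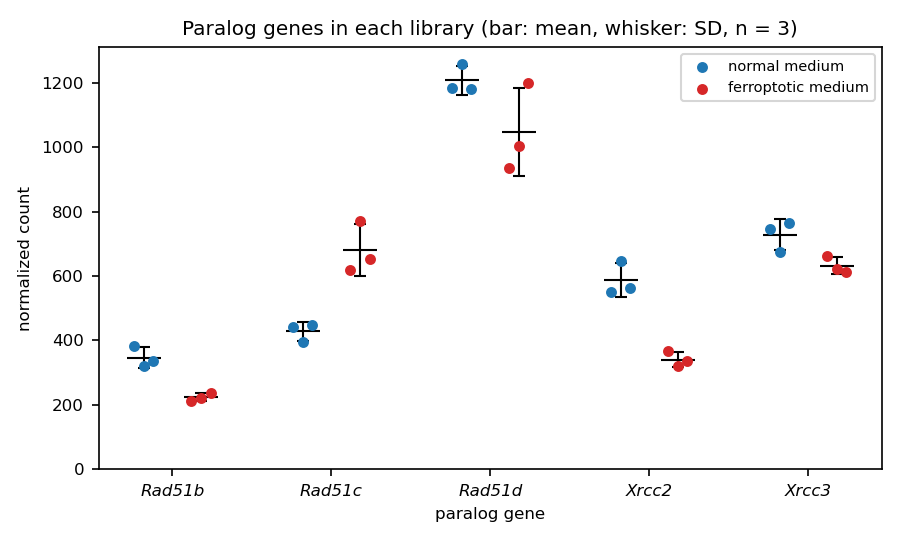
Normalized counts (y axis) of the 5 paralog genes (x axis) in each library, with mean and SD of 3 libraries per medium. Rad51c is the one whose ferroptotic-medium points all lie above its normal-medium points.

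Genes of the motor proteins and other helpers of the recombinase also fell. Rad54l (ENSMUSG00000028702) encodes a DNA translocase that assists strand invasion. Its normalized counts were 5946, 5775 and 5686 with normal medium and 2035, 1969 and 2091 with ferroptotic medium. The log2 fold change was -1.51 (SE 0.04, limma adjusted p = 5.06e-08). This was the largest fall of the 37 and the groups were far apart. The authors' deposited FPKM for Rad54l were 16.1, 15.7 and 15.3 against 5.45, 5.28 and 5.51. Of its exon bases, 15.4% are shared with Lrrc41 on the opposite strand, and no source used here says whether counting used strand. Rad54b, a related translocase, went from 1028 ± 83.9 to 507 ± 87.9 normalized counts (-1.03), but 35.8% of its exon bases are shared with Fsbp on the same strand, so its count is uncertain. Rad51ap1, which stimulates strand invasion, had 1220.3, 1669 and 1735 against 661, 731 and 682 (log2 fold change -1.14, SE 0.13; limma adjusted p = 0.000278), where the first normal-medium library stood below the other two and still above all 3 ferroptotic-medium ones. Exo1, the nuclease of long-range end trimming, went from 1449.6 ± 44.7 to 587 ± 43.8 (log2 fold change -1.30, SE 0.07; limma adjusted p = 2.11e-06), and Blm, the helicase that untangles crossed strands, went from 3338 ± 60.9 to 1824 ± 57.9 (log2 fold change -0.87, SE 0.05; limma adjusted p = 1.25e-06). All 3 genes of the MRN complex, which senses broken ends, also fell. Rad50, its ATPase, had 3989, 4028 and 4116 against 2884, 2895 and 3005 (log2 fold change -0.47, SE 0.04; limma adjusted p = 2.43e-05), the nuclease gene Mre11a went from 3005 ± 129 to 2034 ± 114 (-0.56), and Nbn, which recruits ATM, went from 942 ± 75.4 to 521 ± 15.0 (-0.85).

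Both genes of the ubiquitin target and 5 of the 8 core genes of the Fanconi pathway fell. Fancd2 (ENSMUSG00000034023) and Fanci (ENSMUSG00000039187) encode the pair that receives ubiquitin. Fancd2 had 2934, 3041 and 3081 normalized counts against 1195, 1157 and 1139.7 (log2 fold change -1.37, SE 0.05; limma adjusted p = 1.56e-07), and Fanci had 2191, 2318 and 2146 against 787, 825 and 910.4 (log2 fold change -1.40, SE 0.07; limma adjusted p = 9.27e-07). Both pairs of groups were far apart and the falls were nearly equal. Of Fanci's exon bases, 15.9% are shared with Polg on the opposite strand. The 8 core genes ranged widely, with a median log2 fold change of -0.38. Fanca, the gene most often mutated in Fanconi anaemia, went from 2559 ± 100.1 to 1170.1 ± 61.1 (log2 fold change -1.13, SE 0.06; limma adjusted p = 1.27e-06). Fancb, which sits with the ligase subunit, had 553, 536 and 564 against 273, 244 and 231 (log2 fold change -1.14, SE 0.10; limma adjusted p = 2.4e-05), and Fancm, the translocase that anchors the core to DNA, had 1133, 1019 and 1419 against 568, 738 and 714 (log2 fold change -0.82, SE 0.15; limma adjusted p = 0.00311). These 3 core genes lost more than the other 5. Fancf, a core adaptor, went from 606.5 ± 20.2 to 448 ± 60.3 (-0.44), and 15.0% of its exon bases are shared with Gas2 on the opposite strand. Fance, which contacts FANCD2, had 451 ± 62.1 and 358 ± 6.62 normalized counts (log2 fold change -0.32, SE 0.11; limma adjusted p = 0.0455), and this call was lost in 8 of 15 alternative settings, among them without any single library except the second normal-medium one. Fancg had 743 ± 36.3 and 597 ± 89.8 (log2 fold change -0.33, SE 0.12; limma adjusted p = 0.0501), just short of the threshold, and Fancl, the ubiquitin ligase subunit, had 534 ± 45.1 and 447 ± 13.2 (log2 fold change -0.25, SE 0.09; limma adjusted p = 0.054). Fancc, the scarcest of the 37 per length, had 233, 329.7 and 302 against 240.3, 209 and 236 (log2 fold change -0.32, SE 0.15; limma adjusted p = 0.116), and its groups overlapped. Opposite-strand genes share 16.4% of the exon bases of Fancc (Gm16133), 13.7% of Fancl (Vrk2) and 10.5% of Fanca (Zfp276). Within libraries, the log2 ratio of the Fancd2 and Fanci pair to the mean of the core was 1.93, 1.97 and 1.81 with normal medium and 1.04, 1.15 and 1.15 with ferroptotic medium (exact permutation p = 0.1).

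All 7 checkpoint genes fell. Atm (ENSMUSG00000034218), the kinase that answers double-strand breaks, had 7335, 7776 and 7689.7 normalized counts with normal medium and 4819, 5231 and 5161 with ferroptotic medium (log2 fold change -0.58, SE 0.04; limma adjusted p = 1.05e-05). Atr (ENSMUSG00000032409), the kinase that answers stalled replication, had 2674, 2537 and 2815 against 1943, 1976 and 2163 (log2 fold change -0.40, SE 0.06; limma adjusted p = 0.000784), and its partner Atrip went from 1629 ± 229 to 1024 ± 129.9 (-0.67). Trex1, on the same strand, shares 1147 of Atrip's exon bases, so the Atrip count is uncertain. Topbp1, which switches ATR on, went from 11168 ± 281 to 6226 ± 348 (log2 fold change -0.84, SE 0.05; limma adjusted p = 1.5e-06). Clspn (ENSMUSG00000042489) encodes claspin, which hands CHK1 to ATR, and had 5386, 5302 and 5519 against 2064, 1919 and 1911 (log2 fold change -1.46, SE 0.05; limma adjusted p = 8.2e-08). Chek1 (ENSMUSG00000032113), the CHK1 kinase, had 1746, 1486 and 1498 against 623, 721 and 759 (log2 fold change -1.17, SE 0.10; limma adjusted p = 1.95e-05), and Chek2, the CHK2 kinase below ATM, had 894, 908 and 851 against 451, 385 and 534 (log2 fold change -0.96, SE 0.12; limma adjusted p = 0.000211). The falls of Chek1, Clspn and Chek2 were larger than those of Atr, Topbp1 and Atm respectively. Within libraries, the log2 ratio of Chek1 to Atr went from -0.77 ± 0.15 to -1.53 ± 0.10, that of Chek2 to Atm from -3.10 ± 0.07 to -3.48 ± 0.25, and that of Clspn to Topbp1 from -1.05 ± 0.02 to -1.66 ± 0.14 (SD, n = 3; exact permutation p = 0.1 each). Msh6, which recognises mispaired bases, had 7046, 6244 and 7099 against 3861, 3749 and 3919.6 (log2 fold change -0.82, SE 0.05; limma adjusted p = 5.05e-06).

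Levels between genes were compared as normalized counts per kilobase of exons, with exon lengths from GENCODE M21. With normal medium Msh6 stood highest at 1564 ± 110.3 (SD, n = 3), then Topbp1 at 995 ± 25.0. Rad54l (753), Rad50 (752), Clspn (752) and Atm (735) followed within their spread of each other. With ferroptotic medium these 4 no longer stood together. Rad50 stood at 545 and Atm at 490.5, above Clspn at 273 and Rad54l at 264. Clspn and Rad54l still lay within their spread of each other. Msh6 (884) and Topbp1 (555) had the highest means, but Topbp1 and Rad50 lay within their spread of each other. Rad51c moved from place 35 of 37 (97.6 ± 6.66) to place 15 (155 ± 18.2). Fancc was last with both media, at 34.5 and 27.3. Across the 37 genes, which share the same 6 libraries, the log2 fold change and the log2 level per kilobase with normal medium had a Pearson r of -0.39 and a Spearman rho of -0.39, given as a description. The normal-medium values enter both quantities with opposite signs, so the negative sign is not read as a result.

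**Figure D4:**
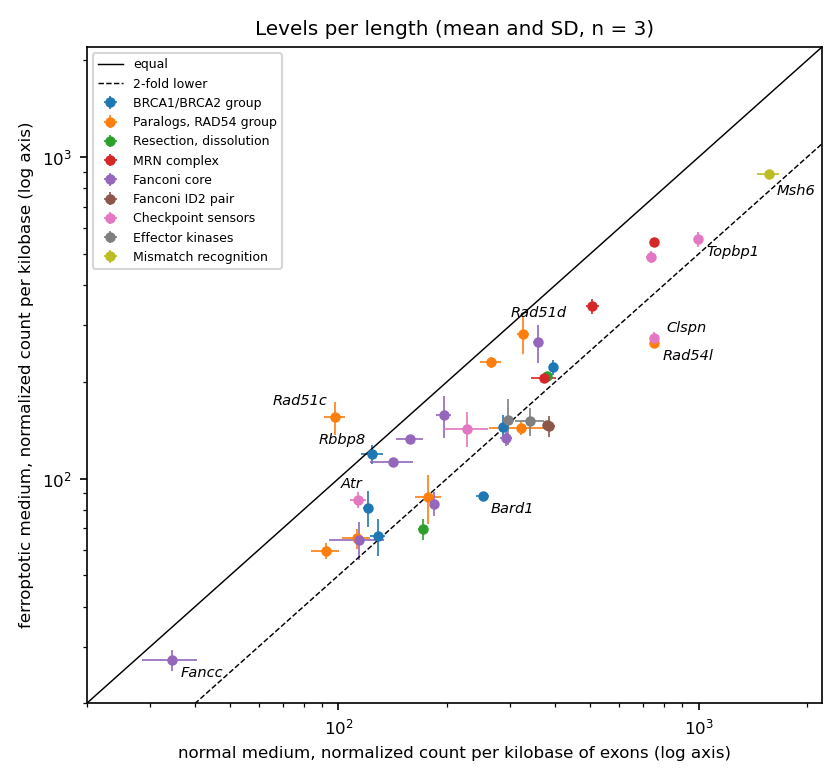
Normalized count per kilobase of exons with ferroptotic medium (y axis) against normal medium (x axis), both on log axes, mean and SD of 3 libraries, coloured by role. Rad51c lies above the line of equal levels, and Rad54l, Clspn and Bard1 lie below the dashed line of a 2-fold fall.

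Other genes of these pathways were followed in lists that leave out the 37. Their counts stand beside 22.8% of all genes tested called lower and 19.7% called higher. In none of these lists did the share that rose exceed that of all genes tested. Of 46 other homologous recombination genes 28 fell and 5 rose (median log2 fold change -0.40). Those that fell included Parpbp (-1.70), a restraint on recombination, Tonsl (-1.09), which binds newly replicated chromatin, and H2afx (-0.88), the histone phosphorylated beside breaks. Those that rose were Rad54l2 (0.45), Zswim7 (0.44), a partner in recombinase assembly, Babam2 (0.30) and Uimc1 (0.27), of a BRCA1 complex that binds ubiquitin, and Sem1 (0.21), a small protein of BRCA2 and of the proteasome. Of 21 other Fanconi and crosslink genes 13 fell (median -0.48), among them Usp1 (-0.76), which removes ubiquitin from FANCD2, the ubiquitin ligases Rfwd3 (-0.87) and Rad18 (-0.95), and the bypass polymerase Polh (-0.78). Of those that fell, 1 passed the filter on low values only through its normal-medium libraries. The nuclease subunit gene Ercc1 rose, from 1259 ± 91.1 to 2172 ± 240.4 normalized counts (0.78).

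Of 28 tested other checkpoint genes 17 fell (median -0.79), and those with the smallest p were the mitotic kinase Ttk (-1.77), Wee1 (-1.75), which restrains CDK1, the phosphatase Cdc25b (-1.18) and the fork protein Tipin (-0.96). Tlk2 (0.47), a kinase of chromatin assembly, and Rad9b (1.00), a variant subunit of the checkpoint clamp, rose. Hunk, a kinase whose place in this list is doubtful, had 0.00, 5.05 and 5.87 normalized counts against 40.4, 44.0 and 42.1. It was also called higher, but it passed the filter on low values only through the ferroptotic-medium libraries, so its call carries no weight here. End joining, which rejoins broken ends without a template, had 9 of 19 genes lower and 3 higher. The median was -0.20, and of all genes tested 22.8% were called lower and 19.7% higher. Parp1 (-0.68), a break sensor, Polq (-1.40), the polymerase of microhomology joining, and Rif1 (-0.44), which protects ends from trimming, fell. The polymerase gene Polm had 648, 707 and 734 against 1187, 1276 and 1228 normalized counts and rose (0.82), as did the ligase gene Lig4 (0.50). Of 6 other mismatch repair genes 5 fell, with Msh3 at -0.51, Pms2 at -0.49 and Pms1 at -0.27, and Mlh3 was at 0.06 (limma adjusted p = 0.634). No test compared these lists with each other.

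**Figure D5:**
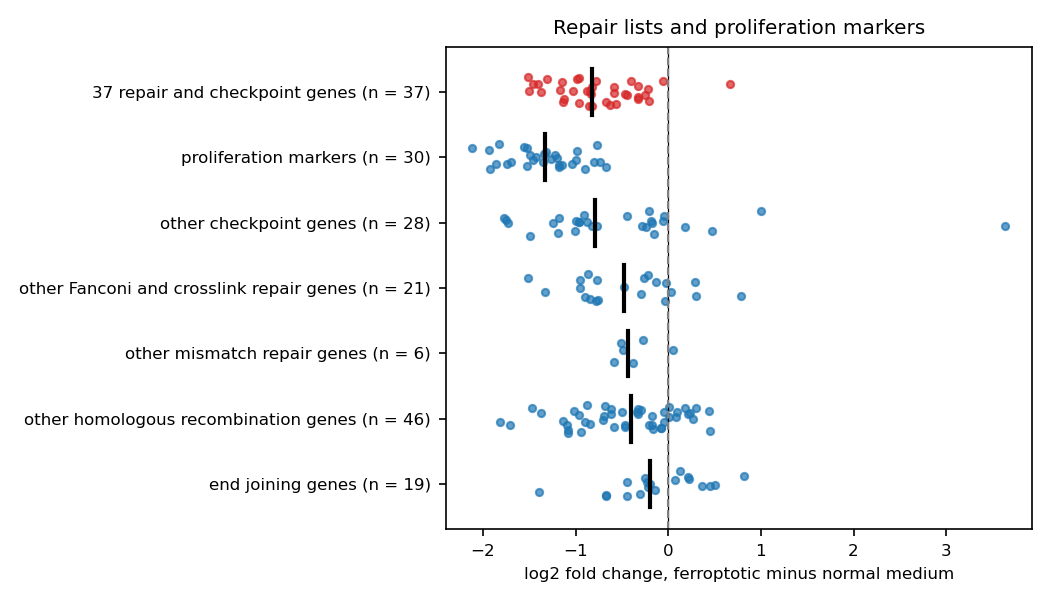
Log2 fold change (x axis) of each gene in the 37 repair and checkpoint genes (red) and in 6 other lists (blue), with the median of each list as a black bar and the median of all genes tested as a dashed line. The medians run from -1.33 for proliferation markers to -0.20 for end joining genes, and the point at 3.64 is Hunk.

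By the authors' deposited table, 31 of the 37 genes had a false discovery rate under 0.05 and a lower value, and 1, Rad51c, a higher one. Fancg was the gene that this table called and limma did not. The authors' shorter table, in which every gene changed by at least 1.0 on the log2 scale, held 11 of the 37: Rad54l, Bard1, Clspn, Fanci, Fancd2, Exo1, Chek1, Fancb, Rad51ap1, Fanca and Rad54b.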

How the data were processed

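RNA from 6 samples of microglia, 3 per conditioned medium, was sequenced after an mRNA library kit. Per the submitters' processing notes, the tools were R 3.4.3, DESeq2 1.18.1, HISAT2 2.1.0 and fastp 0.17.1; the sources used here name no build, annotation or counting tool. The authors deposited log2 values that are log2 of a count divided by a library's size factor, plus 1: 100% of values, after the log was undone, were whole multiples, within 0.01, of 1 read. Normalized counts are these values with the log undone. Counts of 3 were more frequent than of 2 (6101 against 5169), so the reads may be rounded estimates. The authors deposited p-values and false discovery rates, used only for their calls, and FPKM for 1699 genes; over the 707 of these above 1 FPKM, counts per kilobase ranked genes as FPKM did (Spearman rho 1.00).

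The main test was limma 3.58.1 in R 4.3.3 (trend, robust, two-sided) with medium as the one term, over all 15597 genes. It was tested on simulated data. Depth was 39624311 reads or more per library, so at 10 normalized counts a gene rests on about 10 reads. Replicate pairs differed by more than sampling noise (chi-square per degree of freedom 16.6 to 23.2). The genes, the lists and the rule for names (all 37, then up to 4 genes of each other list with the smallest p, and genes where 5 or fewer are counted) were chosen with earlier results of these data known. Some further genes that the rule would name are counted in their lists and not reported by name here. Alternatives were other filters, pseudocounts, scalings and limma settings, limma-voom, a replicate block and leaving out each library. The 29 genes with a promoter window were matched by symbol to RefSeq (GRCm38.p6), and overlaps come from GENCODE M21.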

Additional observations from a re-analysis of the deposited data

How the results depend on the processing

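Over the 15 alternatives, the number of the 37 genes called lower lay between 29 and 32, 1 gene (Rad51c) was called higher in each, and their median log2 fold change lay between -0.85 and -0.78. No gene of the 37 changed sign under any of them. Rad51c stayed called throughout, at 0.57 to 0.73. Calls that came or went were those of Fance (lost in 8), Fancg (gained in 5), Fancl (gained in 5), Rad51d (gained without ferroptotic replicate 3) and Fancc (gained without normal replicate 1). The cause was not tested. Without single replicates, the other mismatch repair genes called lower numbered 3 to 5, with 3 without normal replicate 1, ferroptotic replicate 1 or ferroptotic replicate 2. With the replicate block, 29 of the 37 were lower and 3312 genes were lower and 2914 higher among all genes tested, against 3552 and 3077. The labels do not say whether same-numbered libraries were prepared together. Deviations of same-numbered libraries correlated at -0.031, 0.040 and 0.00057 over 10977 genes. These values show no strong shared deviation, but they cannot settle how the samples were prepared. Library scaling and the other alternatives moved the median of all genes by at most 0.019 on the log2 scale. The lowest value of the 37 in a library was 209 normalized counts, in Fancc. The part of counting noise in the errors of the scarcer genes was not tested.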
